A study of Mus musculus with 2 samples.

Results

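Interferon regulatory factors (IRFs) were followed in mouse osteoclast precursors that were cultured with or without RANKL, the cytokine that starts osteoclast formation. The set holds the 8 family members named IRF1, IRF2, IRF3, IRF4, IRF5, IRF7, ICSBP1 and ISGF3G on the array, out of 31492 array genes. ICSBP1 is the older name of Irf8 and ISGF3G that of Irf9. The rule used names and no measured value. Bone marrow cells of C57BL/6 mice aged 8 weeks were sorted as CD3-, CD45R-, CD11b lo/- and CD115+, then grown for 3 days in MEM-alpha with fetal bovine serum. The M-CSF + RANKL cultures received both factors at 30 ng/ml, and the M-CSF cultures received M-CSF alone at 30 ng/ml, so M-CSF, a growth and survival factor of monocytes and macrophages, was shared by both. Each group is deposited as the mean and SD of 3 biological replicates on separate Illumina bead arrays, in linear normalized intensity units. The sources used here do not say whether the replicates were separate animals or cultures. The p-values here rest on replicate spread, which may be technical, and on a variance moderated with that of the other tested genes.

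IRFs are transcription factors that share an amino-terminal DNA-binding domain and bind elements built around GAAA repeats. IRF3 and IRF7 are phosphorylated after viral RNA or DNA is sensed and switch on interferon genes, whereas IRF9 joins STAT proteins in ISGF3, the complex that answers type I interferon. IRF1 activates and IRF2 antagonises many of the same sites, IRF5 acts downstream of Toll-like receptors, and IRF4 and IRF8 work in lymphoid and myeloid cells, often in pairs with PU.1. In mouse osteoclast precursors IRF8 is known to hold back Nfatc1, and mice without it have excess osteoclasts.

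Most of the family fell with RANKL. On the arrays, 10198 genes were detected with RANKL and 10084 with M-CSF alone, and replicate SDs had medians of 6.78% of the mean with RANKL and 6.89% with M-CSF alone. A gene was tested if its detection p was under 0.01 in at least 1 group, which 7 of the 8 IRF genes met. Irf8, Irf5, Irf9, Irf2, Irf1 and Irf7 fell, and Irf3 rose slightly. Irf4 was detected in neither group. Among 11012 tested array genes, 57.8% differed at an adjusted p under 0.05 in limma, 29.0% lower and 28.9% higher with RANKL, against 6 lower and 1 higher among the 7 tested IRF genes. The median log2 change was −1.15 for the tested IRF genes and −0.0025 for all tested genes. A fall of at least 2-fold was called for 4 IRF genes and for 7.01% of all tested genes.

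Single arrays were not used here, but 3 values cannot lie more than 1.41 SD from their mean, whichever divisor the SD used. On that bound the replicates of the RANKL and M-CSF groups did not overlap for any of the 7 tested IRF genes, and the same held for 50.8% of all tested genes (24.9% lower and 25.8% higher with RANKL). In bulk RNA, fewer cells of a type and less RNA per cell cannot be told apart.

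**Figure D1:**
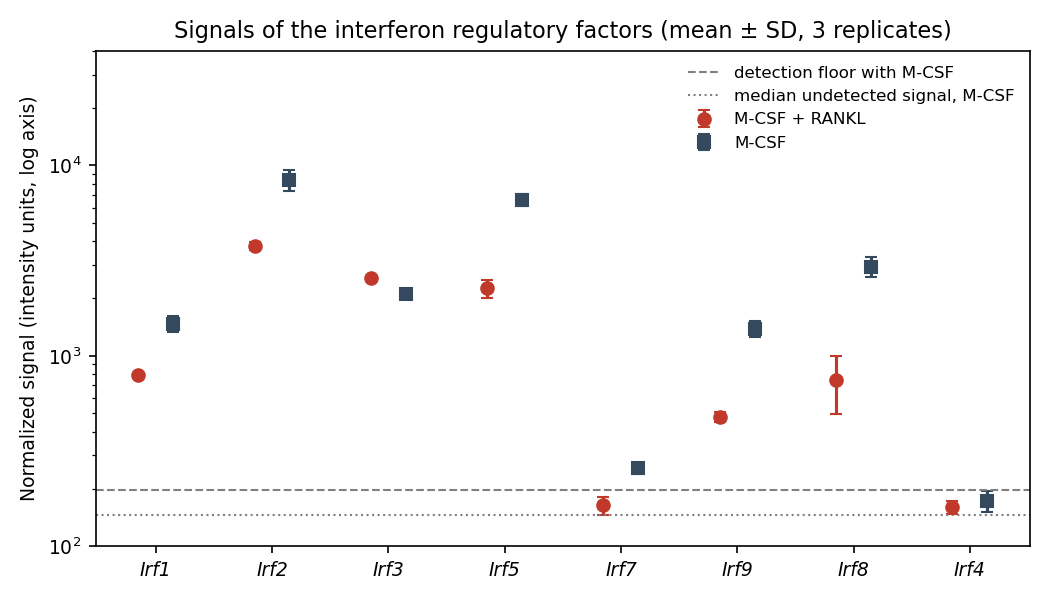
Normalized signal (intensity units, log axis) of the 8 IRF genes in M-CSF + RANKL cultures (circles, left) and M-CSF cultures (squares, right), as means with SD over 3 replicates. Irf8, Irf5, Irf9, Irf2, Irf1 and Irf7 sit lower with RANKL, Irf3 slightly higher, and Irf4 below the detection floor of 198 in both.

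Among the promoters of the family, only those of Irf8, Irf1 and Irf2 hold the letters of interferon response elements, and they are shown for that reason. Irf5, Irf9 and Irf7 also fell, with no match in their windows. The windows run from 250 bases before to 50 bases after each gene start (RefSeq, GRCm38.p6), and all 8 genes have at least 1. The gamma-activated site, which STAT dimers bind, was searched as TTCNNNGAA and the core of the interferon-stimulated response element, which ISGF3 and IRFs bind, as GAAANNGAAA, both on either strand. Capitals mark the matches. The Irf8 window is whole, at chr8:120736108-120736407, and the others show each match with up to 20 bases beside it, at chr11:53769904-53769952 for Irf1 and chr8:46739495-46739549 for Irf2, all on the plus strand.
Irf8: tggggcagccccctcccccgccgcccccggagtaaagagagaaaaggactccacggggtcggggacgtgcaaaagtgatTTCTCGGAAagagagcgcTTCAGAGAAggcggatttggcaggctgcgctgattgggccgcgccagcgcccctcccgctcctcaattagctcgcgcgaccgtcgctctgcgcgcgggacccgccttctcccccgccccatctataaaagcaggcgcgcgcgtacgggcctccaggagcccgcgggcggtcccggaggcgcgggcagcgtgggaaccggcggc
Irf1: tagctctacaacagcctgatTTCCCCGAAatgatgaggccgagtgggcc
Irf2: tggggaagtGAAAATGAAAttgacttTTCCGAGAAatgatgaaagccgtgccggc

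The Irf8 window holds 2 gamma-activated site matches, TTCTCGGAA and TTCAGAGAA, which begin 171 and 153 bases before the start. Irf1 has TTCCCCGAA at 90 bases before its start, and Irf2 has TTCCGAGAA at 224 and the response element core GAAAATGAAA at 241, which do not overlap each other. Windows of the other 5 members hold neither set of letters, which says nothing of elements elsewhere. Of 27025 genes with a window, 9.55% hold a gamma-activated site match and 3.99% a response element match. Among tested genes with a window, 34.2% of the 562 with a gamma-activated site match were called lower with RANKL, against 30.2% of the 6254 without one. For the response element core the shares were 40.6% of 249 genes with a match and 30.2% of 6567 without. These shares are descriptions and were not tested.

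Irf8 had the largest measured fall of the family. Its signal was 745 ± 252 in RANKL cultures and 2940 ± 350 in M-CSF cultures (SD, n = 3 each). Every RANKL replicate therefore lay between 389 and 1102, below every M-CSF replicate, which lay between 2445 and 3434. The fall was 3.95-fold (log2 −1.98 ± 0.20 SE, 95% interval −2.41 to −1.55, adjusted p = 4.03e-06, limma). Of all tested genes, 1.71% had a lower log2 change. The replicates of the RANKL cultures differed from one another more for Irf8 than for any other tested IRF gene, with an SD of 33.8% of the mean against 1.41% to 11.0% for the other six, and with M-CSF alone it was 11.9%.

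Irf5, which carries Toll-like receptor signals to inflammatory cytokine genes, read 2259 ± 236 in RANKL cultures and 6597 ± 498 in M-CSF cultures. It was 2.92-fold lower with RANKL (log2 −1.55 ± 0.10 SE, 95% interval −1.77 to −1.32, adjusted p = 1.23e-07, limma). No replicate with RANKL can have exceeded 2593, and none with M-CSF alone can have been under 5893. Irf9, the DNA-binding subunit of ISGF3, read 477 ± 27.9 in RANKL cultures and 1388 ± 133 in M-CSF cultures. Its fall, 2.91-fold (log2 −1.54 ± 0.11 SE, 95% interval −1.77 to −1.31), was close in size to that of Irf5 as deposited, but after subtraction of the median signal of undetected genes the log2 changes were −1.91 for Irf9 and −1.61 for Irf5. Differences between the changes of single IRF genes were not tested.

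Irf1 and Irf2, the activator and its antagonist, fell together. Irf2 read 3764 ± 191 in RANKL cultures and 8378 ± 1034 in M-CSF cultures, 2.23-fold lower with RANKL (log2 −1.15 ± 0.10 SE, 95% interval −1.38 to −0.93, adjusted p = 1.30e-06, limma). Irf1 read 791 ± 19.3 in RANKL cultures and 1470 ± 139 in M-CSF cultures, 1.86-fold lower (log2 −0.89 ± 0.10 SE, 95% interval −1.12 to −0.67). Both genes were tightly measured with RANKL, with SDs of 2.44% of the mean for Irf1 and 5.07% for Irf2. The detection p-values of Irf1 do not lie on the equal steps seen in most of the table, although its signals are far above background.

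The virus-activated pair Irf3 and Irf7 went opposite ways. Irf3 read 2572 ± 36.3 in RANKL cultures and 2119 ± 133 in M-CSF cultures, a 1.21-fold rise (log2 0.28 ± 0.09 SE, 95% interval 0.08 to 0.48, adjusted p = 0.0212, limma). Every RANKL replicate lay at 2520 or above and every M-CSF replicate at 2306 or below, yet the change lies inside the middle 50% of all tested genes, −0.33 to 0.32. Its call was lost under 4 of 8 alternatives, with adjusted p-values of 0.0562 with no detection filter and 0.306 with both SDs doubled. Irf7, which in most cells is itself raised by interferon, read 164 ± 18.1 in RANKL cultures, where it was not detected, and 256 ± 15.8 in M-CSF cultures. It passed the filter through the M-CSF group alone, and the fall was at least 1.31-fold against the floor of 196 (log2 of the measured signals −0.64 ± 0.10 SE, adjusted p = 0.000148, limma). With background subtracted its log2 change was −2.54, larger than that of Irf8 at −2.22, but it then rests on 19.2 units above background with RANKL and 111 with M-CSF alone. It also lost its call under Holm adjustment in limma (adjusted p = 0.298).

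**Figure D2:**
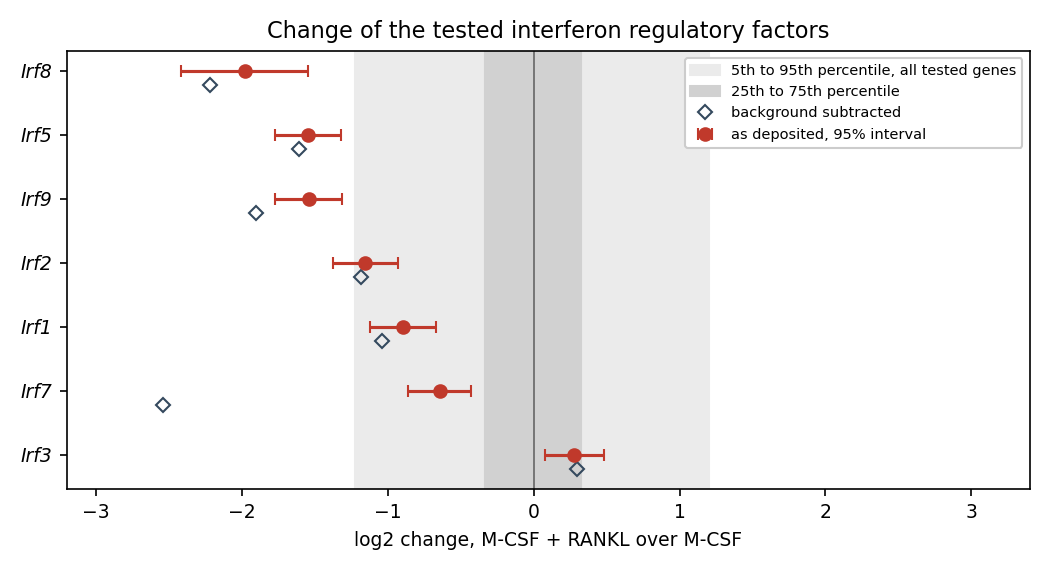
Log2 change (M-CSF + RANKL over M-CSF) of the 7 tested IRF genes as deposited, with 95% intervals (circles), and after background subtraction (diamonds), over the spread of all tested genes (shaded). The changes of Irf8, Irf5 and Irf9 lie below the 5th percentile of −1.22, and Irf7 moves most when background is subtracted.

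Irf4, the close relative of Irf8 in lymphoid and myeloid cells, stayed near background. It read 160 ± 12.3 in RANKL cultures and 173 ± 22.2 in M-CSF cultures, under the floors of 196 and 198, so it was not tested. With the detection filter dropped its log2 change was −0.11 ± 0.10 SE (adjusted p = 0.558, limma). At these signals a change was not detectable.

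Regulators tied to IRF8 in osteoclast formation moved in both directions. Nfatc1, the master transcription factor of osteoclasts, read 2936 ± 195 in RANKL cultures and 581 ± 48.0 in M-CSF cultures and rose 5.05-fold (log2 2.34 ± 0.10 SE). Prdm1, the repressor Blimp1, which is known to act on Irf8 in mouse precursors, read 237 ± 19.2 with RANKL and 152 ± 2.61, below the floor, with M-CSF alone, a rise of at least 1.20-fold. Bcl6, a repressor that like Irf8 is known to restrain osteoclast formation, read 1232 ± 200 with RANKL and 3634 ± 160 with M-CSF alone (2.95-fold lower). Spi1, which encodes the IRF partner PU.1, rose 1.59-fold to 2846 ± 84.5 with RANKL, against 1789 ± 73.9 with M-CSF alone.

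Of 10 tested genes in the list around this axis 6 rose and 4 fell, with a median log2 change of 0.62, or −0.01 over all 14 with no detection filter. Fos, the AP-1 subunit upstream of Nfatc1, rose 2.35-fold to 11406 ± 1148 with RANKL, and the receptor Notch1 fell 2.69-fold to 334 ± 69.9. The DNA methyltransferase Dnmt3a, tied to silencing of Irf8 in mouse osteoclasts, read 127 ± 4.14 with RANKL and 131 ± 4.82 with M-CSF alone and was at background in both. Its naming came after its value was known.

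**Figure D3:**
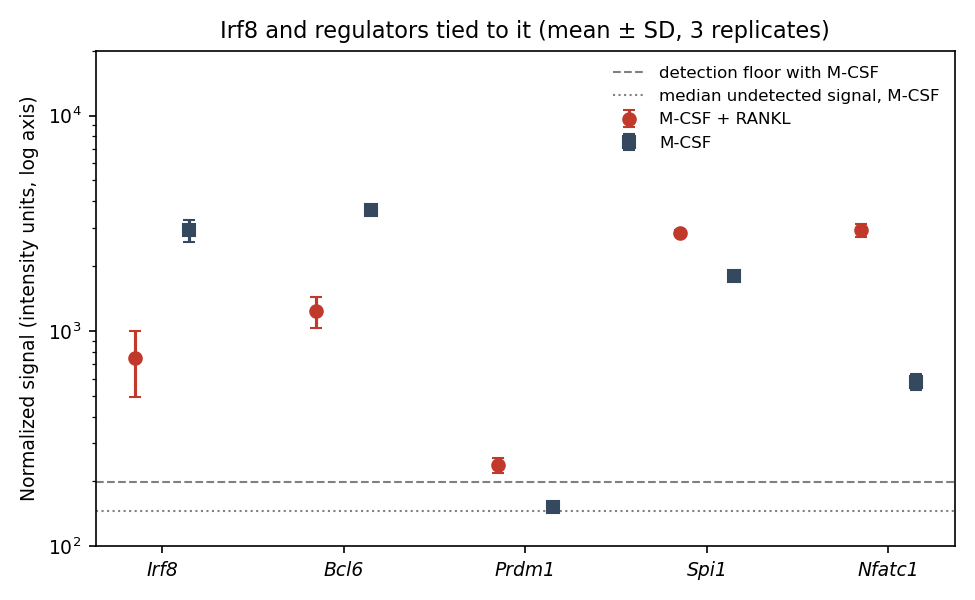
Normalized signal (intensity units, log axis) of Irf8 and 4 regulators tied to it in M-CSF + RANKL cultures (circles, left) and M-CSF cultures (squares, right), as means with SD over 3 replicates. Irf8 and Bcl6 are lower with RANKL, and Prdm1, Spi1 and Nfatc1 higher.

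Most tested myeloid genes linked to IRF8 fell with it. Of 28 on the array 22 were tested, and 19 fell, 1 rose and 2 did not pass (median log2 change −1.47, against −0.0025 for all tested genes). Over all tested genes 29.0% fell. With no detection filter the median over all 28 was −0.99. Ncf1, Il18 and Tlr4, which fell, passed the filter through the M-CSF group alone. The fractalkine receptor Cx3cr1 fell 24.7-fold, to 689 ± 111 with RANKL against 17015 ± 1980 with M-CSF alone. Ly86 (MD-1), a partner of the receptor RP105, fell 7.05-fold to 1750 ± 464, and Aif1 (Iba1), an actin-binding protein of macrophages, fell 6.36-fold to 941 ± 143. Ctsc, the lysosomal protease cathepsin C, fell 5.51-fold to 4132 ± 815. The gene that rose was Ncf4, a phagocyte oxidase subunit, at 12381 ± 1163 with RANKL and 8494 ± 339 with M-CSF alone. Klf4, a monocyte transcription factor known as an IRF8 target in mice, read 323 with RANKL and 381 with M-CSF alone and did not pass (log2 −0.24 ± 0.10 SE, adjusted p = 0.0555, limma). Ncf1, Il18, Tlr4, Ncf4 and Klf4 were named after their values were seen.

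Macrophage markers moved with these genes. Of 12 tested 11 fell and 1 did not pass, and their summed signal was 86326 in RANKL cultures and 151507 in M-CSF cultures. The 2 lists share Cx3cr1 and Csf1r. Csf1r, on which the cells were sorted, was detected in both groups, at 12688 ± 1294 with RANKL and 18261 ± 1386 with M-CSF alone. Of 10 osteoclast markers 8 were tested and all 8 rose, with a summed signal over the 10 of 158164 with RANKL and 2168 with M-CSF alone. Acp5, Oscar, Ocstamp and Itgb3 are among those that passed the detection filter through the RANKL group alone, which favours a rise. They were named after their values were seen. The part of these marker shifts in the IRF changes was not tested.

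Markers of other cell types were mostly undetected for lymphoid and dendritic cells and mostly detected for granulocytes. Among 10 B and plasma cell markers only Cd79b passed the detection filter, and it was called lower with RANKL (log2 −0.48). The list summed to 1503 with RANKL and 1620 with M-CSF alone, with Pax5 and Ms4a1 undetected in both. Of 8 conventional dendritic cell markers on the array only Batf3 passed the filter, through the M-CSF group alone. Batf3 was called lower, at 158 ± 2.09 with RANKL and 280 ± 16.7 with M-CSF alone. The sums of that list were 1309 with RANKL and 1339 with M-CSF alone. For 7 plasmacytoid dendritic cell markers the sums were 1977 with RANKL and 3375 with M-CSF alone, and 2 were tested, neither of which was called lower or higher. Most of that gap is Tcf4, at 806 ± 91.0 with RANKL and 2256 ± 415 with M-CSF alone, which failed the detection filter in spite of its signal. Siglech and Ccr9, defining markers of those cells, were not detected. Of 11 T and NK cell markers only Prf1 passed the filter, and it was called higher with RANKL (log2 0.65). The sums of that list were 2772 with RANKL and 2317 with M-CSF alone. Granulocyte markers summed to 12814 with RANKL and 17392 with M-CSF alone, with 2 of 7 tested lower (S100a8 and S100a9) and 0 higher. Of these Mpo, a granule enzyme, varied widely between replicates, at 3400 ± 1525 with RANKL and 4720 ± 2588 with M-CSF alone. Genes of this paragraph were named after their values were seen.

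Few ligands of the pathway were detected, while 10 of 13 tested receptor and signal carrier genes fell. Of 18 interferon ligand genes on the array, 1 passed the detection filter, Ifna1, at 162 ± 2.58 with RANKL and 173 ± 5.73 with M-CSF alone, and it did not pass the test (adjusted p = 0.318, limma). The brightest ligand, Ifnab, read 272 ± 2.59 with RANKL and 264 ± 18.2 with M-CSF alone and missed the detection filter. Ifnb1, the main product of IRF3, read 144 ± 6.59 with RANKL and 136 ± 3.30 with M-CSF alone and was not detected. Of 19 receptor and JAK-STAT genes on the array 13 were tested, of which 10 fell, 1 rose and 2 did not pass (median −0.50). The type I receptor chain Ifnar2 fell 2.22-fold, to 290 ± 23.3 with RANKL against 644 ± 34.7 with M-CSF alone, and Il10rb, a chain shared by interferon lambda and IL-10 receptors, fell 1.88-fold. The probe of the other type I chain, Ifnar1, was at background in both groups.

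Stat2, a partner of IRF9 in ISGF3, read 170 ± 4.69 with RANKL, below the floor, and 399 ± 29.0 with M-CSF alone, a fall of at least 2.03-fold. Stat2 passed the detection filter through the M-CSF group alone, whereas Irf9 was detected in both groups (adjusted p = 1.53e-07 for its fall, limma). Usp18, an interferon-induced brake on the receptor, read 176 ± 9.17 with RANKL and 354 ± 28.3 with M-CSF alone. For the interferon gamma receptor, Ifngr1 fell 1.73-fold, whereas Ifngr2 rose, at 2740 ± 246 with RANKL and 2138 ± 452 with M-CSF alone (adjusted p = 0.0483, limma), a call lost under 7 of 8 alternatives. Ifna1, Ifnab, Ifnb1, Ifnar1, Ifngr1 and Ifngr2 were named after their values were seen.

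Upstream of IRF3, IRF5 and IRF7, Tlr7, Tlr8 and Tlr13 fell while the kinase Tbk1 did not pass. Of 34 sensors, adaptors and kinases on the array 26 were tested, of which 13 fell, 3 rose and 10 did not pass (median −0.22). Over all tested genes 29.0% fell and 28.9% rose. Tlr3, an endosomal sensor of double-stranded RNA, was not detected, at 153 ± 20.6 with RANKL and 170 ± 16.4 with M-CSF alone. Tlr13 and Tlr7, sensors of bacterial and single-stranded RNA, fell 11.6-fold and 11.0-fold. Tlr13 read 606 ± 90.7 with RANKL and 7054 ± 837 with M-CSF alone, and Tlr7 read 389 ± 53.6 with RANKL and 4267 ± 600 with M-CSF alone. Tlr8 fell at least 4.82-fold, and Ticam2, the bridging adaptor of Tlr4, fell 3.36-fold to 234 ± 34.6.

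Unc93b1, which escorts these receptors to endosomes, fell 3.10-fold, and Sting1, the adaptor of DNA sensing, fell 2.37-fold to 256 ± 17.4. The 2 kinases of IRF3 and IRF7 differed in their calls. Ikbke fell 2.60-fold, to 335 ± 6.10 with RANKL against 871 ± 75.5 with M-CSF alone. Tbk1 read 9940 ± 855 with RANKL and 11118 ± 289 with M-CSF alone and did not pass (log2 −0.16 ± 0.08 SE, adjusted p = 0.114, limma). The 3 that rose were Tank, a scaffold of these kinases, at 3770 ± 512 with RANKL and 1278 ± 107 with M-CSF alone, Traf6, at 1809 ± 51.9 with RANKL and 915 ± 65.7 with M-CSF alone, and Mavs, the mitochondrial adaptor of RNA sensing, by 0.39 on the log2 scale. Traf6 also carries signals from RANK. Apart from Tlr7, Tlr8, Tlr13 and Ticam2, the genes of this list were named after their values were seen.

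Downstream, most tested genes of the ISGF3-type response fell. Of 42 on the array 28 were tested, of which 25 fell, 0 rose and 3 did not pass (median −0.83, or −1.52 with background subtracted and −0.61 over all 42 with no detection filter). Those not tested include Ifit1 and Mx1, antiviral effectors that were not detected in either group. Of the 3, Isg15, the ubiquitin-like modifier, read 210 ± 46.3 with RANKL and 262 ± 37.9 with M-CSF alone (adjusted p = 0.0930, limma). Oasl2, an oligoadenylate synthetase relative, fell 3.36-fold to 225 ± 29.5 with RANKL, and Lgals3bp, a secreted glycoprotein, fell 3.24-fold to 1908 ± 213. Oasl2 missed the detection filter with RANKL and passed it through the M-CSF group alone. With background subtracted the log2 change of Oasl2 was −2.93 in place of −1.75. Parp14, an ADP-ribosyltransferase, fell 3.10-fold to 877 ± 163, and its second array gene, dimmer, was also lower. Dhx58, a helicase of the RIG-I family, fell 2.58-fold to 242 ± 13.3. At an unadjusted p under 0.05 in limma, 1 of the 28 was higher, Znfx1, an RNA helicase, at 915 ± 75.5 with RANKL and 762 ± 86.7 with M-CSF alone (adjusted p = 0.0658). Oasl1, a relative of Oasl2, was the third that did not pass, and these 3, Ifit1 and Mx1 were named after their values were seen.

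Genes linked to interferon gamma and IRF1 moved both ways, with 9 lower, 4 higher and 4 not passing among 17 tested of 28 on the array (median −0.61, or −0.20 over all 28 with no detection filter). Casp1, the inflammasome protease, fell 2.31-fold to 7332 ± 706 with RANKL, against 16911 ± 1429 with M-CSF alone. The GTPases Irgm2 and Igtp fell 2.48-fold and 2.43-fold, and Psmb8, a subunit of the immunoproteasome, fell 1.97-fold. The 4 that rose were Gbp6, Tap2, Irgm1 and Gbp4, named after their values were seen, with log2 changes of 0.96, 0.95, 0.69 and 0.44. Gbp6, Irgm1 and Gbp4 are interferon-induced GTPases with close relatives, among which cross-hybridisation was not examined, and Tap2 is a chain of the peptide transporter for class I presentation.

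Among inflammatory genes linked to IRF5, Ccl4, Ccl3 and Tnf fell. Only 4 of 11 on the array were tested, and the fourth, Il1b, did not pass, at 200.1 ± 17.7 with RANKL and 207 ± 4.27 with M-CSF alone (named once its value was known). The median was −2.03 over the 4 tested and −0.07 over all 11 with no detection filter. Ccl4 fell 17.0-fold, to 250 ± 32.7 with RANKL against 4258 ± 402 with M-CSF alone, and its fellow chemokine Ccl3 fell 5.85-fold to 413 ± 27.8. Tnf, the inflammatory cytokine, fell 2.84-fold, to 700 ± 40.9 with RANKL against 1988 ± 149 with M-CSF alone.

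Of 21 IRF partner genes on the array 16 were tested, with 9 lower, 3 higher and 4 not passing (median −0.44), beside 29.0% lower and 28.9% higher over all tested genes. Beside Nfatc1 and Spi1, the NF-kB subunit Rel rose 2.17-fold to 581 ± 79.7 with RANKL. Ikzf1 (Ikaros), which pairs with IRF4 and IRF8 in lymphoid cells, fell 2.62-fold to 275 ± 17.7. Of its 2 further array genes, 1 fell 2.45-fold and the other was at background. The corepressor Irf2bp2 fell 1.43-fold to 1984 ± 198, while Irf2bp1 read 703 ± 25.1 with RANKL and 802 ± 49.4 with M-CSF alone and did not pass. Both corepressors were named after their values were seen. Of 9 tested housekeeping genes 1 rose (Rpl13a), 2 fell (Hprt and Actb) and 6 did not pass, with a median of 0.03. Hprt read 6120 ± 707 with RANKL and 12005 ± 1930 with M-CSF alone.

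**Figure D4:**
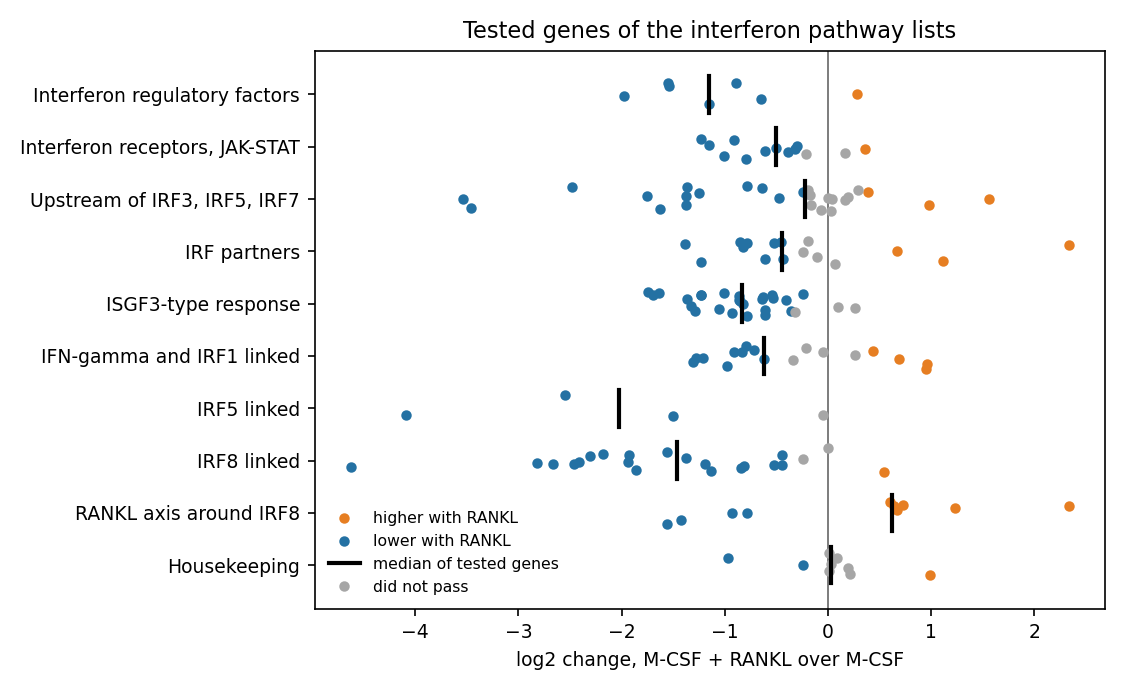
Log2 change (M-CSF + RANKL over M-CSF) of each tested gene in the IRF set and in 9 lists around it, coloured by its call, with the median as a bar. Medians of tested genes run from −2.03 for 4 IRF5 linked genes (−0.07 over all 11 with no detection filter) to 0.62 for the list of the RANKL axis (−0.01 over all 14), and housekeeping genes centre on 0.03.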

How the data were processed

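RNA of adherent cells was measured on bead arrays from Illumina. Per the file headers and labels, the deposited intensities are the authors' normalized linear means of 3 biological replicates per group, with the SD between arrays. How they were normalized, the array version and the divisor of the SD are not stated in the sources used here. The authors deposited a detection p-value per array gene and group. The authors' deposited ratio is headed as M-CSF over RANKL but equals RANKL over M-CSF in all 31492 array genes (relative tolerance 1e-06), and the deposited value table of the series holds the same means.

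The log2 ratio of the 2 means (RANKL over M-CSF) was tested where either detection p was under 0.01. Its variance was taken from the deposited SDs by the delta method and moderated with squeezeVar in limma 3.58.1 (R 4.3.3, intensity trend, prior df 7.49, total df 11.5). Two-sided p-values were adjusted by Benjamini-Hochberg across the 11012 tested genes (threshold 0.05), and intervals are 95%. The median SE was 0.10 on the log2 scale, and the number of arrays limits the precision. The test was checked on simulated data. Floors of 196 with RANKL and 198 with M-CSF alone are the lowest signals detected among array genes whose detection p lies on equal steps, and some other genes were detected below them: where a group was undetected and below its floor, the fold is printed as "at least". Background was the median of undetected genes, 145 in both groups. Levels of different probes were not tested against each other. Summed list signals add the raw signals of different probes, background included, so bright probes weigh most in them.

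Array names were matched to RefSeq symbols for 13430 array genes and to 1 synonym for 8112. Where several array genes share a symbol, the brightest stands for it. Promoter windows are from RefSeq, GRCm38.p6.

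Named genes are every IRF gene, then the genes past the threshold with the 4 largest log2 changes in each list that is not a marker list, and Nfatc1, Prdm1, Bcl6 and Spi1. Some genes of the lists are counted in them but not reported by name here. Some genes are in several lists. The IRF set and all lists were chosen with earlier results of these data known. Alternatives were the detection filter, the moderation, the intensity trend, the background, the SDs, the scaling and the adjustment.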

Additional observations from a re-analysis of the deposited data

How the results depend on the processing

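Limits: only means and SDs were used, so replicates could not be left out one at a time, and a normalization fault or 1 deviating array cannot be seen. No paired analysis was possible because the files hold 1 mean per group. Signals near 145 units, as for Irf4, Irf7 with RANKL and Ifnb1, limit what can be detected. Of 8 alternatives, the 6 falls among IRF genes were all called in 7. Under Holm adjustment 5 were called, and Irf7 (log2 −0.64) had an adjusted p of 0.298 in limma. With background subtracted Irf7 moved to −2.54. Irf3 (log2 0.28) lost its call, leaving 0 IRF genes higher, with no detection filter (adjusted p = 0.0562, limma), with no moderation and linear means (0.0567), with both SDs doubled (0.306) and under Holm (1). Its unadjusted p-values there were 0.0123, 0.0213, 0.156 and 0.0108. Against 6369 genes called over the whole array, 3868 were called with no moderation, 3054 with SDs doubled and 2028 under Holm. In the pathway lists, 83 genes lower became 49 under Holm, and 17 higher became 9 with no moderation and 8 under Holm. With no detection filter the list of the RANKL axis had a median of −0.01 in place of 0.62. The IRF5 linked genes had −0.07 in place of −2.03 (−1.08 at a detection p under 0.05). The interferon gamma and IRF1 linked genes had −0.20 in place of −0.61. Genes that missed the filter enter there, and not all of them are dim. Ezh2 read 493 with RANKL and 824 with M-CSF alone, and B2m read 24212 with RANKL and 33712 with M-CSF alone. Both were named after their values were seen. The other 82 values of these summaries and IRF genes kept their direction and call, or stayed within 1.5 times the count. Only background subtraction and scaling can alter the log2 change of an IRF gene. Under the other alternatives its direction was fixed in advance, and only its call could change. For single lists, 156 counts stayed within 1.5 times the reported count and 20 fell by more, among them the ISGF3-type genes lower, 13 under Holm.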
